A study of Homo sapiens with 5 samples.

Results

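The 39 protein-coding HOX genes of the clusters A to D were chosen by their symbols (HOX, a cluster letter and a number) and described in RNA-Seq counts of the SCLC cell line NCI-H209. They are 39 of 58780 genes counted. The study asked how a vascular niche changes tumor cells, and compared 3 control libraries of untreated NCI-H209 cells with 2 libraries of the same line co-cultured for 24 h with HBMECs, endothelial cells of the small vessels of the brain. Both groups grew in RPMI-1640 with fetal bovine serum, and neither carried a genetic change. The medium in which the HBMECs were kept also held Nu-serum, and the paper does not say whether the co-culture did. In co-culture the HBMECs sat on a Transwell membrane that let medium but not whole cells through, and only the tumor cells were collected. The model is thus 1 cell line and a shared medium. Nothing in the labels says that replicates came from separate cultures, so p-values measure the spread between these samples, which may be technical.

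HOX genes encode transcription factors that bind DNA through the homeodomain and give cells their place along the head-to-tail axis of the embryo. They lie in 4 clusters that arose by duplication, and genes of the same number in different clusters are called paralogues. Within a cluster the order of the genes follows the order of their expression: low numbers act early and towards the head, high numbers late and towards the tail, a relation known as collinearity. Adult tissues and tumors keep part of this pattern, held by Polycomb and Trithorax complexes. HOXB9, a gene of the thoracic region in the embryo, has been studied as a factor in lung tumors.

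The HOXA cluster, on chromosome 7, has 11 genes, HOXB spanned chr17:48528526-48729178 with 10, HOXC spanned chr12:53938765-54056030 with 9 and HOXD spanned chr2:176092891-176190907 with 9 (GRCh38). All HOXA and HOXB genes lie on the minus strand, and all HOXC and HOXD genes on the plus strand. The 180 bases that encode the homeodomain are shown for 3 paralogues of position 9, because this position held the strongest rise, a fall and a gene near the limit of detection. The stretches were read in the GENCODE transcripts, at chr17:48622921-48623100 for HOXB9 on the minus strand, and at chr12:54002465-54002644 for HOXC9 and chr2:176123969-176124148 for HOXD9 on the plus strand. Each lies in an exon, and capitals mark the 137 bases that are the same in all 3:
HOXB9: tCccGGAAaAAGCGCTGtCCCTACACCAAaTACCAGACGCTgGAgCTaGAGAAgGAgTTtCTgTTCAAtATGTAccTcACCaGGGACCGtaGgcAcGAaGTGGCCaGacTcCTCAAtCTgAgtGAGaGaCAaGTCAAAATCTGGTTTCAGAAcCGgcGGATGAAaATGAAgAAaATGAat
HOXC9: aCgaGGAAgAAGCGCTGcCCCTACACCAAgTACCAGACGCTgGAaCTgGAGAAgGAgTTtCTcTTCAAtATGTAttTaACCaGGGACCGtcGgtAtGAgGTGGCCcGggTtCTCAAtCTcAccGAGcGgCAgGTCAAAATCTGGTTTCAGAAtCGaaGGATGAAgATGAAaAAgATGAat
HOXD9: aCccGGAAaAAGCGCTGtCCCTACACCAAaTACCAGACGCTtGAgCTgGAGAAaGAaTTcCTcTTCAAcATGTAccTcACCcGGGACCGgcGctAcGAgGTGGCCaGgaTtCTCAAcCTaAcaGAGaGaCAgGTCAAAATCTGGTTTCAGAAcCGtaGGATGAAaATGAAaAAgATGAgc
Of these 3, HOXB9 and HOXD9 were the closest pair, with 84.4% of the bases the same, and HOXB9 and HOXC9 the most distant, with 82.2%. Outside and inside the homeobox, the longest run of identical bases between transcripts of HOXB9 and HOXD9 was 40. Over all 42 pairs of paralogues the longest such run was 62 bases, between HOXB3 and HOXD3, so no pair shared a run of 100 bases.

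Sense-strand counts on genes summed to 15457071 to 19157348 per library. HOX genes took 8859 to 10989 of them. Reads that could not be aligned made up 8.13 to 8.48% of control reads and 15.9 and 16.8% of co-cultured reads. Reads that fell on no gene in the sense-strand counts made up 47.3, 51.2 and 49.6% in control and 40.1 and 40.8% in co-culture. The part of these differences in the results was not tested. Control replicate 1 stood apart from the other controls: the chi-square per degree of freedom between replicates was 15.9 and 16.1 for the pairs that include it, against 5.75 for control replicates 2 and 3 and 4.19 for the co-cultured pair. No 2 libraries agreed within sampling noise. The neuroendocrine markers of the line were present, with NCAM1 at 8725 to 11708 and INSM1 at 8606 to 11970 counts, although CHGA had 0 or 1. Of 18 endothelial markers 7 had at most 3 counts in every library, PLVAP and MMRN1 had 0, and the list summed to 10.4 to 20.0 CPM in control and 13.7 and 14.1 CPM in co-cultured libraries. ESAM, a junction protein, was the marker called, with 3, 4 and 6 counts in the controls, against 21 and 14 in co-culture (log2 fold change 2.14 ± 0.46 SE, edgeR adjusted p = 0.0067, and 0.0968 without co-cultured replicate 1). VWF, at 75 to 159 counts, and ERG, at 41 to 70, were more abundant and not called, and KDR had 37, 27 and 2 counts against 12 and 4 and TEK 31, 24 and 0 against 6 and 3; these 4 were named after their values were seen. The 6 mesenchymal markers summed to 9.62, 9.46 and 1.28 CPM in control and 2.62 and 3.77 CPM in co-culture, and the part of these other-cell signals in the HOX results was not tested. In bulk RNA, fewer cells that express a gene and less RNA of it per cell cannot be told apart.

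NCI-H209 expressed mainly 3 of the 4 clusters. All 11 HOXA genes, 8 of 10 HOXB genes and 8 of 9 HOXD genes reached 10 counts in at least 1 library, against 1 of 9 HOXC genes. CPM, the counts scaled to library size after normalization, summed over the 39 genes to 551.5, 541.1 and 562.7 in the controls, and to 599.3 and 585.2 after co-culture. In control, HOXD genes made up 43.9% and HOXB genes 40.8% of this sum, HOXA genes 15.0% and HOXC genes 0.267%. Without HOXB9 the sum over the members overlapped between the groups, at 537.4, 527.3 and 547.0 CPM against 540.7 and 528.1 CPM. The HOXB sum was 238.9, 215.5 and 221.3 CPM in the controls, against 266.6 and 268.7 CPM in co-culture, so the co-cultured libraries lay above all controls. Without HOXB9 the HOXB sums overlapped, at 224.8, 201.7 and 205.7 CPM against 208.0 and 211.5 CPM. The HOXD sum overlapped between the groups, at 223.2, 248.7 and 254.2 CPM against 240.5 and 234.1 CPM, and so did the HOXA sum, at 88.3, 75.3 and 85.6 CPM against 90.9 and 81.2 CPM. The HOXD sum held genes that rose and genes that fell.

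Levels of different genes were compared as CPM per kb of exon that can be counted for that gene alone. In control, HOXD10, a gene of the posterior trunk and limbs, was highest at 41.0 CPM per kb, apart from the next gene in all 3 libraries. HOXB2, a gene of the hindbrain, followed at 24.6 and HOXD8 at 24.0 CPM per kb, and these neighbours overlapped. HOXD11 was at 17.3 and HOXD9 at 16.6 CPM per kb, with overlapping libraries. From HOXD11 to HOXA10, at 9.28 CPM per kb, each gene overlapped the next in the order. HOXB9 was the 14th gene at 5.64 CPM per kb in control and the 4th at 22.4 CPM per kb in co-culture, after HOXD8 at 35.7, HOXD10 at 30.1 and HOXB2 at 27.7 CPM per kb. HOXC9 and HOXA2 were among the lowest tested genes, at 0.418 and 0.366 CPM per kb in control. Of 27 neighbouring pairs in the control order, 22 overlapped.

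**Figure D1:**
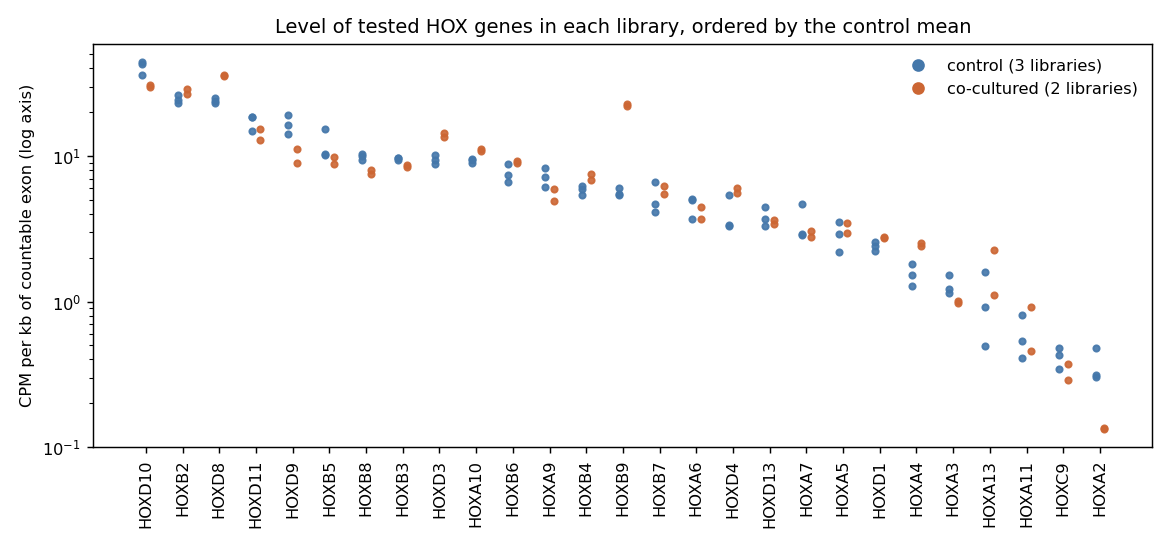
Level of tested HOX genes in CPM per kb of countable exon (log axis), with 1 point per library, 3 control (blue) and 2 co-cultured (orange), ordered by the control mean. HOXB9 rises from the middle of the order, at 5.64, to the level of the top genes, at 22.4 CPM per kb.

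Of the 28 members that passed the filter on low counts, 7 were called at an adjusted p under 0.05 in the quasi-likelihood test of edgeR (p-values adjusted by Benjamini-Hochberg over 20360 genes), or 25.0%. Over all genes tested the share was 33.4%, so the share among HOX genes was below that of the background and is no result about the HOX genes as a group. HOXB9, HOXD8 and HOXD3 rose, and HOXD9, HOXD10, HOXB8 and HOXA2 fell (18.4% of all genes rose and 15.0% fell). The median log2 fold change of the 28 genes was 0.17, with 15 above 0, beside -0.03 over all genes. By the fold and p thresholds that the methods state, taken here as an absolute log2 fold change over 1 and an unadjusted p under 0.05, the members called were HOXB9 and HOXA2, or 2 of 28, against 10.5% of all genes. Groups did not overlap in CPM for 18 of the 28 members, 10 with co-cultured above and 8 below, against 59.4% of all genes. The number of calls depended on single libraries: it was 13 without control replicate 1, which added HOXA10, HOXB2, HOXB4, HOXB6, HOXB7 and HOXD11, 4 without co-cultured replicate 1 and 2 without co-cultured replicate 2, where HOXB9 and HOXD8 remained.

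**Figure D2:**
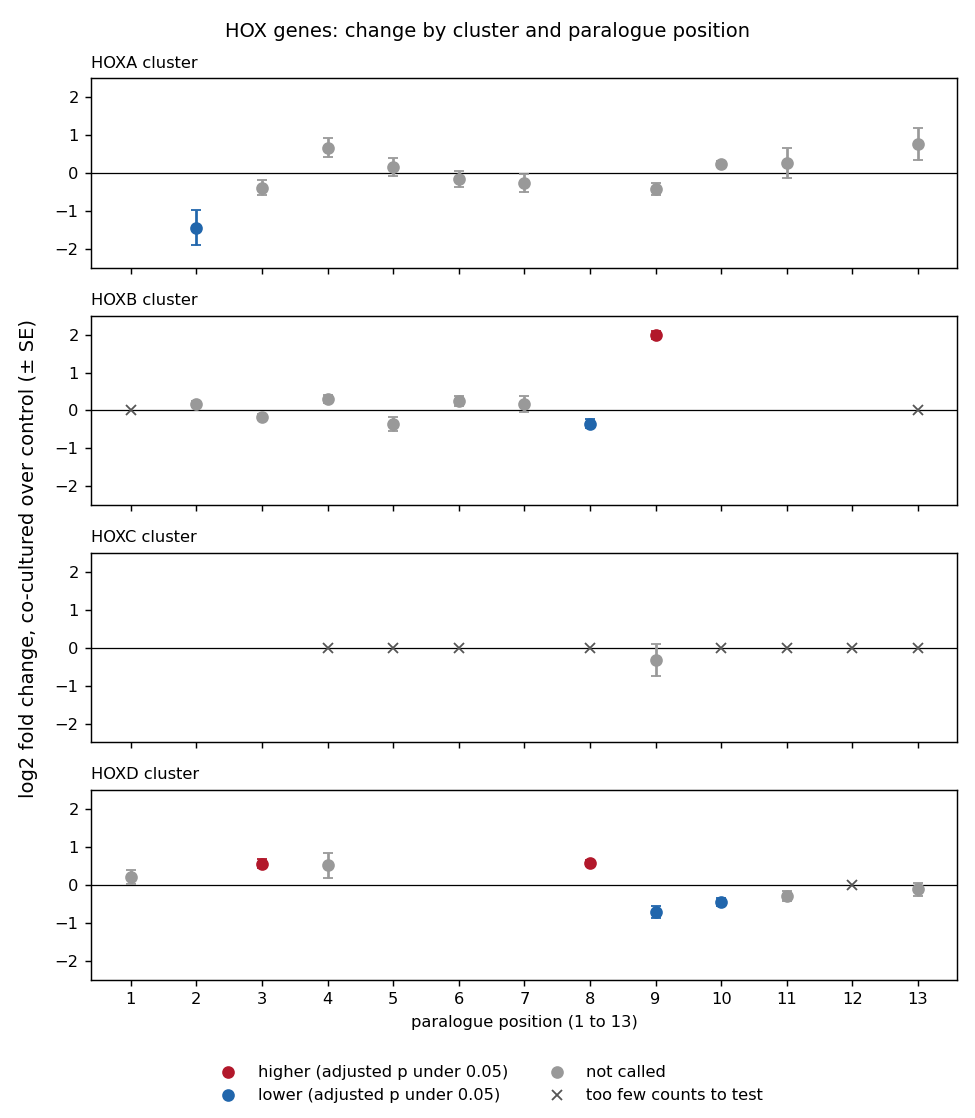
Log2 fold change (± SE), co-cultured against control, by paralogue position, 1 panel per cluster; red and blue points were called higher and lower, grey points were not called and crosses had too few counts to test. HOXB9 stands at 1.99 beside HOXB8 at -0.35, and the HOXD genes are above 0 up to position 8 and below 0 from position 9 (HOXD13 turns to 0.01 with a replicate block and without control replicate 3).

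HOXB9 (ENSG00000170689.9, chr17:48621159-48626356) had the largest rise among the members. It had 266, 250 and 306 counts in the controls, against 1073 and 865 in co-culture, or 14.5 ± 0.985 CPM (SD, n = 3) rising to 57.9 ± 1.07 CPM (SD, n = 2). The groups were far apart and the spread within each was small. The log2 fold change was 1.99 ± 0.10 (SE), a 3.98-fold rise (edgeR adjusted p = 1.3e-05). It was called in all 5 fits that left out 1 library, with log2 fold changes from 1.96 to 2.05. None of its exon bases are shared with another annotated gene on either strand, and 0.12% of its reads in control and 0.05% in co-culture lay on the opposite strand.

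**Figure D3:**
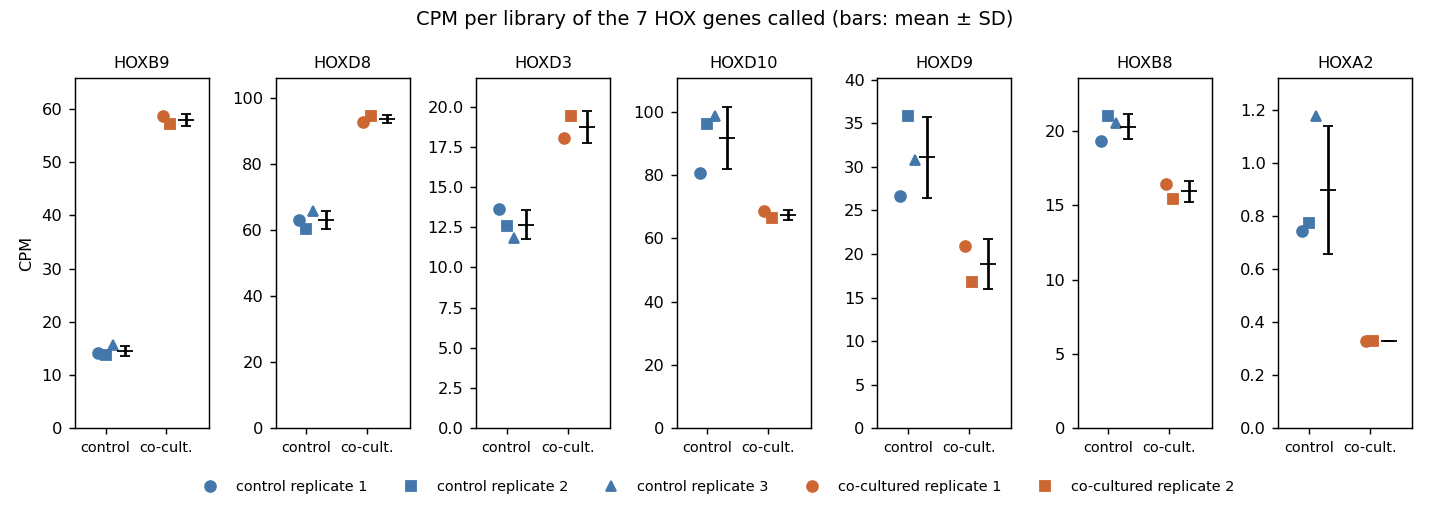
CPM of the 7 called HOX genes in each library, control (blue) and co-cultured (orange), with the mean ± SD of each group in black and a separate scale from 0 in each panel. In each panel the groups do not overlap; HOXB9 goes from 14.5 to 57.9 CPM.

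No neighbour of HOXB9 in its cluster was called higher in the edgeR test of all 5 libraries. HOXB8, whose 3′ end lies 9.78 kb away and which acts in the thoracic region and in myeloid cells, had 364, 380 and 401 counts in the controls, against 301 and 234 in co-culture. Its CPM, 20.3 ± 0.853 (SD, n = 3) and 16.0 ± 0.703 (SD, n = 2), did not overlap between groups, and the log2 fold change was -0.35 ± 0.11 SE (edgeR adjusted p = 0.037). This call was kept in 1 of 5 fits that left out a library, the one without control replicate 1; the adjusted p was 0.114 without control replicate 2, 0.106 without control replicate 3, 0.149 without co-cultured replicate 1 and 0.231 without co-cultured replicate 2. With all libraries the call was lost with DESeq2 (adjusted p = 0.0834), the filter of 1 count in any library (0.0733), unstranded counts (0.0721) and a replicate block (0.178). HOXB7, a gene often studied in epithelial tumors, had 190, 130 and 124 counts against 153 and 143 (log2 fold change 0.17 ± 0.21 SE, not called). HOXB6 had 362, 259 and 313 counts against 357 and 302, with a log2 fold change of 0.25 (not called). Without control replicate 1, HOXB7 (0.40, edgeR adjusted p = 0.048) and HOXB6 (0.38, edgeR adjusted p = 0.0077) were called higher.

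The genes of the head side of the HOXB cluster gave small differences, none of them called. HOXB5, which acts in the gut and lung of the embryo, had 585, 376 and 413 counts in the controls, against 330 and 306 in co-culture (log2 fold change -0.35, edgeR adjusted p = 0.166). HOXB4, known for its effect on blood stem cells, had 317, 351 and 360 against 431 and 324 counts (0.30, edgeR adjusted p = 0.066). HOXB3 had 1245, 1170 and 1303 against 1095 and 872 counts (-0.17). HOXB2 had 1162, 981 and 1103 against 1138 and 1021 counts (0.17). The groups did not overlap in CPM for HOXB2 to HOXB6 but their differences were at most 0.35 on the log2 scale. HOXB1 had at most 1 count and HOXB13, a gene of the prostate, at most 1 count in any library.

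In the HOXD cluster HOXD3 and HOXD8 rose, HOXD9 and HOXD10 fell, and the other 4 tested genes were not called. HOXD8 had 1186, 1093 and 1285 counts in the controls, against 1700 and 1433 in co-culture, or 63.1 ± 2.68 CPM (SD, n = 3) rising to 93.8 ± 1.23 CPM (SD, n = 2). Both co-cultured libraries were above all controls (log2 fold change 0.57 ± 0.08 SE, edgeR adjusted p = 0.00066), and the gene was called in all 5 fits that left out a library. HOXD3, linked to adhesion and vessel growth, had 256, 227 and 231 counts against 330 and 294 (log2 fold change 0.56 ± 0.12 SE, edgeR adjusted p = 0.0067). Without co-cultured replicate 2 its adjusted p was 0.0789. HOXD3 shares 62.2% of its exon bases with AC009336.2 on its strand, so its count covers 1342 bases of 3548. Of its reads, 25.5% in control and 19.5% in co-culture were on the opposite strand, where HAGLR and HOXD-AS2 lie.

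HOXD9 fell, with 501, 648 and 600 counts in the controls, against 382 and 254 in co-culture. Its CPM was 31.1 ± 4.61 (SD, n = 3) against 18.8 ± 2.90 (SD, n = 2), with all co-cultured libraries below the controls and a log2 fold change of -0.72 ± 0.15 SE (edgeR adjusted p = 0.0061). Without co-cultured replicate 2 the adjusted p was 0.0852. HOXD10 had 1516, 1737 and 1926 counts in the controls, against 1253 and 1003 in co-culture (log2 fold change -0.45 ± 0.10 SE, edgeR adjusted p = 0.0086), and its groups did not overlap either. Its adjusted p was 0.0819 without co-cultured replicate 1 and 0.0961 without co-cultured replicate 2.

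The remaining HOXD genes were not called, and their values lay on the same sides of 0 as those of their neighbours. HOXD1 had 92, 77 and 90 counts in the controls, against 96 and 81 in co-culture (log2 fold change 0.21). HOXD4 had 18, 17 and 30 against 29 and 26 counts (0.52 ± 0.33 SE), counted over only 286 of its 1464 exon bases because AC009336.2 covers the rest. HOXD11, a gene of the forearm and kidney, had 464, 556 and 602 against 463 and 321 counts (-0.30, edgeR adjusted p = 0.110). HOXD13, a gene of the digits, had 155, 134 and 195 against 139 and 124 counts (-0.12), a value that turned to 0.01 with a replicate block and without control replicate 3. HOXD12 had 6 to 9 counts in all libraries and was not tested. Summed counts of HOXD1 to HOXD8 were 0.587, 0.459 and 0.491 times those of HOXD9 to HOXD13 in the control libraries and 0.959 and 1.07 times in the co-cultured libraries. This split was chosen after the values were seen and is given as a description.

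**Figure D4:**
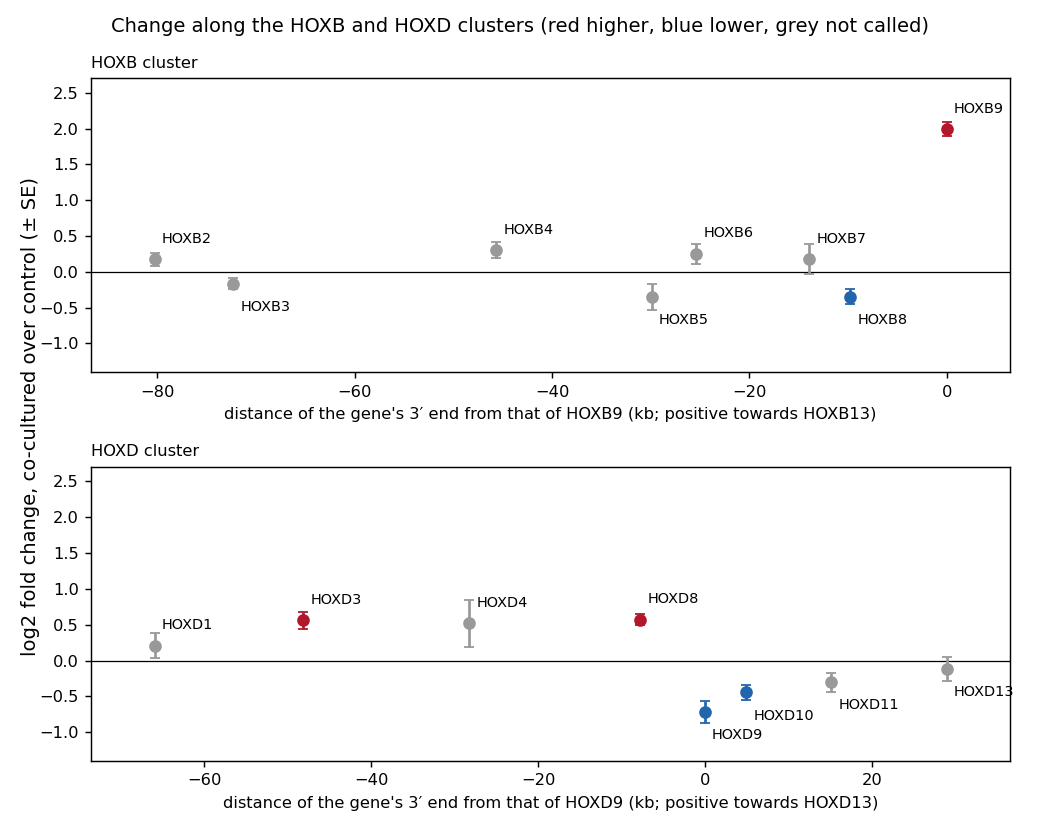
Log2 fold change (± SE) of the tested HOXB (top) and HOXD (bottom) genes against the distance in kb of each gene's 3′ end from that of HOXB9 or HOXD9. HOXB9 is alone at 1.99 with HOXB8 at -0.35 beside it, and HOXD8, 7.76 kb from HOXD9, lies on the other side of 0.

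The RefSeq promoter table (GRCh38.p14) held 20 of the 39 members. HOXB9, HOXB8 and HOXD9 were not among them, so their promoters were not searched. The 250 bases before the start site are shown for HOXD8 (chr2:176129455-176129704) and HOXD3 (chr2:176157057-176157306), which rose together, and for HOXD10 (chr2:176116528-176116777), which fell, all on the plus strand. Capitals mark matches, on either strand, of the core ACGTG, the palindrome CACGTG that holds it and the box CCAAT:
HOXD8: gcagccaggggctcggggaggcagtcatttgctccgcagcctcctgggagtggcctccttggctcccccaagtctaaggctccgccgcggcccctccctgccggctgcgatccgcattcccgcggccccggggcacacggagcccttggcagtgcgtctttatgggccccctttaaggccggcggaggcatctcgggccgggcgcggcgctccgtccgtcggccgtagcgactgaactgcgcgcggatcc
HOXD3: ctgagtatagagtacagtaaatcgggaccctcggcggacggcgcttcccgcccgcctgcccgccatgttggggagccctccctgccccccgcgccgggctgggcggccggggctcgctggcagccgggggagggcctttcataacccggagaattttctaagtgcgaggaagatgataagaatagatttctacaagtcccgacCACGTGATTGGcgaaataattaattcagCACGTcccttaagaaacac
HOXD10: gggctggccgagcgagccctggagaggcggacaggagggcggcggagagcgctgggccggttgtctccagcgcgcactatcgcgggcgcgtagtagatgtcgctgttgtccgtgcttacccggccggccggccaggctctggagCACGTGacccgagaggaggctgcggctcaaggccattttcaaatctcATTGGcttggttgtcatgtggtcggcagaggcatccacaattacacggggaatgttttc
ACGTG, a form of the core bound by hypoxia-inducible factors, stood in the windows of HOXD3 and HOXD10. Each window held it within 1 palindrome CACGTG, which was added to the search after the data were seen, and HOXD3 held it at a further place outside the palindrome. HOXD8 had no match to any motif searched. ACGTG was found in 15 of the 20 members and in 21.7% of all genes in the table, and CACGTG, which contains it, in 8 of 20 and 7.73%. GCGTG, the other form of the hypoxia core searched, was found in 8 of 20 and 36.2%. CCAAT was found in 17 of 20 and 37.0%, and TATAAA in 4 of 20 and 13.05%. TGATNNAT, a form bound by HOX with PBX, was found in 3 of 20 and 7.91%, and TGANTCA, the AP-1 motif, in 0 of 20 and 8.06%. Members with several start sites counted once. Some members share a start site, such as HOXC4 and HOXC5, and a match is a description of these letters only. The genes with ACGTG include HOXD3, which rose, HOXD10 and HOXA2, which fell, and members that were not called.

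The HOXA cluster gave 1 call among 11 tested genes. HOXA2, a gene of the hindbrain and branchial arches, had 14, 14 and 23 counts in the controls, against 6 and 5 in co-culture, or 0.899 ± 0.242 CPM (SD, n = 3) falling to 0.329 ± 0.00166 CPM (SD, n = 2) in co-culture. The log2 fold change was -1.43 ± 0.47 SE (edgeR adjusted p = 0.041). It rested on few counts: the adjusted p was 0.0573 without control replicate 2, 0.102 without control replicate 3, 0.205 without co-cultured replicate 1 and 0.180 without co-cultured replicate 2. In counts without regard to strand the log2 fold change was -0.30, and 23.9% of the reads at HOXA2 in control and 63.3% in co-culture were on the opposite strand. Those opposite-strand reads numbered 0, 11 and 5 in the controls and 8 and 11 in co-culture. The adjusted p of HOXA2 was 0.130 with DESeq2 and 0.182 with a replicate block. HOXA10, a gene of the uterus and a factor in leukemia, had 601, 538 and 610 counts in the controls, against 680 and 548 in co-culture (log2 fold change 0.24 ± 0.09 SE, edgeR adjusted p = 0.060). HOXA9, its neighbour and partner in leukemia, had 399, 281 and 356 against 276 and 189 counts (-0.41 ± 0.16 SE, edgeR adjusted p = 0.075, and 0.0430 without control replicate 2). Neither was called here, while HOXA9 was called with upper-quartile normalization (adjusted p = 0.0324) and with the filter of 1 count in any library (adjusted p = 0.0334).

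HOXA13, a gene of the distal limb and genital tract, varied widely among libraries of both groups. It had 47, 85 and 158 counts in the controls, against 210 and 86 in co-culture, so the groups overlapped (log2 fold change 0.76 ± 0.42 SE, edgeR adjusted p = 0.199). The log2 fold change ran from 0.16 to 1.27 when 1 library was left out, with an adjusted p of 0.0394 without control replicate 3. HOXA13 was also called with a replicate block (1.23, adjusted p = 0.0062) and with the filter of 1 count in any library (adjusted p = 0.0012). HOXA11 had 35, 17 and 24 against 39 and 16 counts, and its log2 fold change of 0.27 turned to -0.34 without co-cultured replicate 1 and to -0.01 in unstranded counts. HOXA4 had 29, 33 and 43 against 53 and 46 counts (0.67 ± 0.25 SE, edgeR adjusted p = 0.066). HOXA3, a gene of the thymus and parathyroid, had 84, 86 and 116 against 70 and 60 counts (-0.38). HOXA4 was above and HOXA3 below the controls in both co-cultured libraries, and neither was called.

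The middle of the HOXA cluster overlapped between the groups. HOXA5, needed for lung development, had 113, 90 and 73 counts in the controls, against 93 and 90 in co-culture (log2 fold change 0.17). HOXA6 had 117, 82 and 119 against 100 and 69 counts, and its log2 fold change of -0.16 turned to 0.28 in unstranded counts, which keep 40.5% of its reads because HOXA-AS3 overlaps it. HOXA7 had 211, 124 and 138 against 122 and 111 counts, and its log2 fold change of -0.26 turned to 0.01 without control replicate 1.

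The HOXC cluster was close to silent in every library. HOXC9 had 13, 10 and 15 counts in the controls, against 11 and 7 in co-culture (log2 fold change -0.32 ± 0.42 SE, not called). HOXC6 had 3 to 8 counts, HOXC4 0 to 5 and HOXC11 1 to 4. HOXC5, HOXC8 and HOXC10 had at most 2 counts and HOXC13 at most 1. HOXC12 had 0 counts in all 5 libraries, which allows up to 0.154 to 0.198 CPM (3 counts per library, counting error only). The summed cluster was 1.22 to 1.66 CPM in control and 1.26 and 1.26 CPM in co-culture, so the groups overlapped. A small change was not detectable at this depth.

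Differences between paralogues were not tested in the edgeR fit, and ratios of HOXB9 to HOXA9 and to HOXD9 are given below. At position 9, HOXB9 rose, HOXD9 fell, and HOXA9 and HOXC9 were not called. The sum of position 9 went from 62.7, 65.7 and 65.4 CPM in control to 95.2 and 86.9 CPM in co-culture. Within it, HOXB9 went from 14.1, 13.8 and 15.7 CPM to 58.6 and 57.1 CPM. The mean CPM of HOXA9, HOXC9 and HOXD9 was lower in co-culture than in control. At position 8, HOXD8 rose and HOXB8 fell, and HOXC8 had at most 2 counts. At position 4, HOXA4, HOXB4 and HOXD4 had log2 fold changes of 0.67, 0.30 and 0.52 with co-cultured libraries above the controls in CPM, and none of them was called. At position 10, HOXD10 fell while HOXA10 had a log2 fold change of 0.24. Positions 1 to 3, 4 to 8 and 9 to 13 held 2 of 7, 2 of 11 and 3 of 10 calls among tested members, all below the 33.4% of all genes, and each of these groups held calls in both directions.

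Ratios within a library do not depend on normalization. HOXB9 had 0.731, 0.658 and 0.763 counts per count of HOXB8 in control and 3.56 and 3.70 in co-culture. Against HOXA9 it had 0.667, 0.890 and 0.860 in control and 3.89 and 4.58 in co-culture, and against HOXD9 0.531, 0.386 and 0.510 and then 2.81 and 3.41. HOXD8 had 2.37, 1.69 and 2.14 counts per count of HOXD9 in control and 4.45 and 5.64 in co-culture. In contrast, HOXD3 had 0.216, 0.208 and 0.180 counts per count of HOXD8 in control and 0.194 and 0.205 in co-culture, which overlapped. Most pairs set HOXB9 or HOXD8, both called higher, over a gene that was called lower or not called. Separation of such ratios follows in part from the calls made on the same counts, so it is not separate evidence. Ratios of other gene pairs were not computed as a background. Of 8 ratios computed, 7 did not overlap between the groups. Of these, the ratio of HOXD9 to HOXD10 gave p = 0.2 in a two-sided exact permutation test and the other 6 gave p = 0.1, the smallest p that 3 against 2 libraries can give (0.133 after Benjamini-Hochberg adjustment over the 8), so no ratio could pass a threshold of 0.05.

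**Figure D5:**
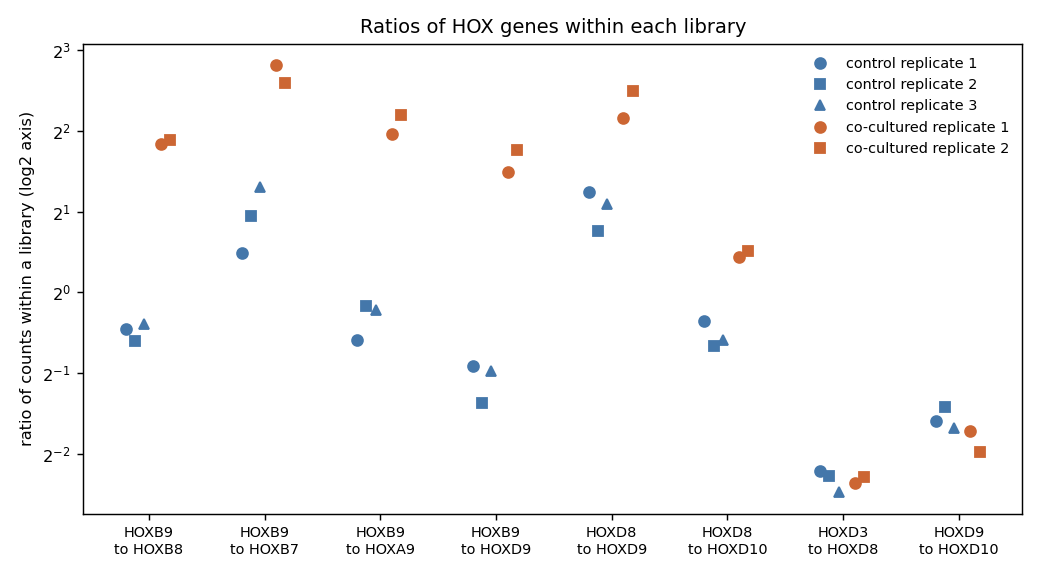
Ratio of the counts of 2 HOX genes within each library (log2 axis), control in blue and co-cultured in orange. The ratio of HOXB9 to HOXB8 goes from at most 0.763 to at least 3.56, while that of HOXD3 to HOXD8 stays between 0.180 and 0.216.

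Of 18 noncoding RNAs of the clusters, 9 were tested and 2 were called, both lower (15.0% of all genes fell), with a median log2 fold change of 0.12. HAGLROS, an RNA of the HOXD cluster, had 158, 138 and 171 counts in the controls, against 84 and 68 in co-culture (log2 fold change -0.86 ± 0.16 SE, edgeR adjusted p = 0.0041), and it was called in all 5 fits that left out a library. HOXB-AS1, antisense to HOXB2 and HOXB3, had 202, 199 and 260 against 163 and 116 counts (-0.49 ± 0.16 SE, edgeR adjusted p = 0.038). This call was kept only without control replicate 1, and the adjusted p was 0.0693 and 0.138 without control replicates 2 and 3, and 0.110 and 0.247 without co-cultured replicates 1 and 2. HAGLR, named after its values were seen, was the most abundant at 1287, 1302 and 1482 against 1416 and 1198 counts (0.12 ± 0.08 SE, not called). The RNAs HOTAIR of the HOXC cluster and HOTTIP beside HOXA13, both known as regulators of HOX chromatin, had at most 1 and at most 3 counts and were also named after their values were seen.

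Opposite-strand reads were less frequent at HOX genes than over all genes in every library. They made up 6.13% (95% Wilson interval 5.69 to 6.59), 6.52% (6.07 to 7.01) and 6.33% (5.91 to 6.79) of reads at HOX genes in control and 4.61% (4.24 to 5.01) and 5.78% (5.32 to 6.27) in co-culture. These intervals cover counting error only, and PCR copies are not independent molecules. Over all genes the share was 7.34 to 7.68% in control and 6.93% in both co-cultured libraries. Shares of single genes, pooled over the libraries of a group, went in both directions. They were 20.0% in control and 15.4% in co-culture at HOXB3, and 36.1% and 28.6% at HOXA11. At HOXA2 they were 23.9% and 63.3%, and at HOXB5 3.31% and 5.07%. The shares of single libraries overlapped between the groups at HOXA11, with 15, 14 and 14 opposite-strand reads in control and 13 and 9 in co-culture. HOXA2 had 0, 11 and 5 such reads in control and 8 and 11 in co-culture.

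Of 14 genes that flank the clusters, 10 were tested and 5 were called, 3 higher and 2 lower, or 50.0% against 33.4% of all genes, around a median log2 fold change of -0.03. LNPK, a protein of the endoplasmic reticulum on the HOXD13 side of the HOXD cluster, had 3229, 3297 and 3452 counts in the controls, against 7710 and 5620 in co-culture (log2 fold change 1.16 ± 0.08 SE, edgeR adjusted p = 4.3e-05). SKAP2, an adaptor protein beside the HOXA cluster, had 1737, 1562 and 1739 against 2414 and 2048 counts (0.58 ± 0.07 SE, edgeR adjusted p = 0.00051). CALCOCO1, near HOXC, had 839, 1091 and 1206 against 500 and 338 counts (-1.16 ± 0.16 SE, edgeR adjusted p = 0.00072). All 3 were called in each of the 5 fits that left out a library. MTX2, on the HOXD1 side and named after its values were seen, had a log2 fold change of -0.03.

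HOX proteins bind DNA with TALE cofactors of the PBX, MEIS and PKNOX families. Of 9 such genes 6 were tested and 4 were called, 2 higher and 2 lower, or 66.7% against 33.4% of all genes; their median log2 fold change was 0.15. MEIS1 had 551, 485 and 622 counts in the controls, against 798 and 669 in co-culture (log2 fold change 0.58 ± 0.10 SE, edgeR adjusted p = 0.0022). PBX3 had 1562, 1355 and 1477 against 1799 and 1505 counts (0.34 ± 0.08 SE, edgeR adjusted p = 0.0095). PKNOX1 had 815, 721 and 731 against 539 and 475 counts (-0.40 ± 0.10 SE, edgeR adjusted p = 0.013). MEIS1 was called in all 5 fits that left out a library, while PBX3 and PKNOX1 had adjusted p of 0.0731 and 0.136 without co-cultured replicate 1 and of 0.0935 and 0.0768 without co-cultured replicate 2. PBX2, named after its values were seen, had 0 counts on its main entry, which has near-identical copies among the haplotype entries, so its level is uncertain. None of the 6 ParaHox genes, the sister group of the HOX genes, reached the filter.

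Polycomb proteins keep HOX genes silent in cells where they are not used. Of 24 such genes 22 were tested, and 7 were higher and 3 lower, or 45.5% called against 33.4% of all genes; their median log2 fold change was 0.10. BMI1, a subunit of the complex that marks H2A, had 651, 542 and 550 counts in the controls, against 863 and 752 in co-culture (log2 fold change 0.65 ± 0.10 SE, edgeR adjusted p = 0.0018). EZH1, a methyltransferase of H3K27, had 713, 817 and 891 against 462 and 377 counts (-0.77 ± 0.11 SE, edgeR adjusted p = 0.00090). Both were called in all 5 fits that left out a library.

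Trithorax proteins and H3K27 demethylases oppose Polycomb at HOX genes. Of 11 tested, 3 were higher and 1 lower, or 36.4% called, close to the 33.4% of all genes; their median log2 fold change was 0.02. KDM6B, a demethylase of H3K27, had 1694, 2262 and 2449 counts in the controls, against 4668 and 3273 in co-culture (log2 fold change 1.05 ± 0.14 SE, edgeR adjusted p = 0.00071). RBBP5 had 1836, 1900 and 1939 against 2398 and 1882 counts (0.34 ± 0.08 SE, edgeR adjusted p = 0.0080), and ASH2L had 1725, 1553 and 1783 against 1337 and 1150 counts (-0.27 ± 0.08 SE, edgeR adjusted p = 0.025). Both belong to the core of the H3K4 methyltransferase complexes, and their adjusted p was 0.104 and 0.208 without co-cultured replicate 1, 0.0555 and 0.134 without co-cultured replicate 2, and 0.0327 and 0.0812 without control replicate 3.

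Retinoic acid, a derivative of vitamin A, sets the expression of HOX genes in the embryo. Of 13 retinoid genes 8 were tested, and 3 were higher and 1 lower, or 50.0% called against 33.4% of all genes; their median log2 fold change was 0.66. CRABP2, which carries retinoic acid to the nucleus, had 19, 42 and 58 counts in the controls, against 216 and 158 in co-culture (log2 fold change 2.40 ± 0.32 SE, edgeR adjusted p = 0.00063). RXRA, a receptor subunit, had 198, 276 and 289 against 165 and 113 counts (-0.71 ± 0.19 SE, edgeR adjusted p = 0.019), and the receptor RARG had 21, 47 and 33 against 90 and 46 counts (1.16 ± 0.35 SE, edgeR adjusted p = 0.032). CRABP2 was called in all 5 fits that left out a library. The adjusted p of RXRA was 0.0662 and 0.0626 without control replicates 2 and 3 and 0.0759 and 0.162 without co-cultured replicates 1 and 2, and that of RARG was 0.0796 without control replicate 3 and 0.309 and 0.0526 without co-cultured replicates 1 and 2. Of the low-numbered HOX genes, known as the members most responsive to retinoic acid, HOXD3 was called higher and HOXA2 lower. HOXD1, HOXB2, HOXA3 and HOXB3 were not called, and HOXB1 had at most 1 count. A link of these genes to the retinoid genes was not tested.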

How the data were processed

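Directional, rRNA-depleted RNA-Seq libraries of NCI-H209 cells, 3 control and 2 from a 24 h co-culture with HBMECs, were analysed. The authors deposited a table of read counts for each library, as STAR writes it, with 1 column regardless of strand and 1 for each strand. Per the submitters' processing notes, CASAVA 1.8, STAR 2.6.1b, DESeq2 and the build GRCh38 were used; the entries are those of GENCODE 29. Counts on the sense strand were used here. The authors' table of the comparison (means, fold changes, p-values) was used only for its pairs of gene ID and symbol; it holds 36 of the 39 members, and HOXB13, HOXC12 and HOXC13 were added by symbol from the annotation. A second entry for HOXC5 had 0 counts and was left out.

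The program edgeR 4.0.16 (R 4.3.3) was used with its filterByExpr filter, TMM factors and the quasi-likelihood test, with no covariate, and p-values were adjusted by Benjamini-Hochberg over 20360 genes. The biological coefficient of variation was 10.2%. CPM are counts scaled to the library total after TMM. To get standard errors, each log2 fold change was divided by the root of its F statistic. The steps were tested on simulated data. The members and lists were chosen with earlier results of these data known. HOX genes with at least 10 counts in any library are given with every count; of other lists, the 3 members with the smallest p among those with an adjusted p under 0.05 are named, and a few genes that meet these rules are not reported here. Alternatives were DESeq2 1.42.0 without its independent filtering, normalization by median ratios or by upper quartiles, a filter of 1 count in any library or of 10 counts in every library, unstranded counts, no patch or haplotype entries, a replicate block, and each library left out. Totals were 15457071 to 19157348 counts, and 3 counts equal 0.154 to 0.198 CPM after TMM. Homeobox sequences came from GENCODE transcripts and promoters from RefSeq (GRCh38.p14). Plots were drawn with matplotlib 3.10.9.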

Additional observations from a re-analysis of the deposited data

How the results depend on the processing

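Of the 28 HOX genes tested, 9 kept their direction and their side of the threshold under every alternative that could be fitted. HOXB9 and HOXD8 kept theirs as calls in all of them. The 7 HOX calls became 5 with DESeq2, 9 with upper-quartile normalization or with a filter of 1 count in any library, and 6 with 10 counts in every library, unstranded counts or a replicate block. The genes called lower, 4 of the 7, were 2 with DESeq2, unstranded counts or the block. Leaving out 1 library gave 2 to 13 calls, with 2 to 8 higher and 0 to 5 lower; with a co-cultured library left out, the lone sample was assumed to vary like the controls. By the study's thresholds the 2 calls became 1 with 10 counts in every library or unstranded counts, and 1 to 3 without 1 library. Directions turned for HOXA6 (0.28) and HOXA11 (-0.0053) in unstranded counts and for HOXD13 (0.0115) with the block. Without 1 library the values ran from -0.38 to 0.0072 for HOXA7, from -0.21 to 0.0149 for HOXD13 and from -0.34 to 0.67 for HOXA11, none of them called. The log2 ratio of the HOXB sum was 0.25, and 0.17 with upper-quartile normalization. The sums of HOXA and HOXD moved on both sides of 0. Noncoding calls went from 2 to 1 with DESeq2 or the block and to 3 with the filter of 1 count in any library. They were 1 to 3 without 1 library; flanking calls, 5, were 3 to 5, cofactor calls, 4, were 1 to 4 and 2 with the block, and calls among chromatin and retinoid regulators, 18, were 7 to 25 and 11 with the block. The replicate numbers 1 and 2 occur in both groups, but same-numbered libraries did not deviate together (correlation -0.106). This compares only 1 pair of libraries in each group, so it cannot show whether same-numbered libraries were paired. The causes of these changes were not tested. Depth limits the HOXC cluster and HOXA2, whose counts were under 30.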

Other observations

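Other annotated transcripts of the clusters with at least 10 counts in a library, named after their values were seen, were AC103702.1 and AC103702.2 in HOXB and AC009336.2 in HOXD. AC103702.1 (chr17:48579630-48582259), an intronic transcript on the strand of HOXB3, had 138, 130 and 150 counts in the controls, against 148 and 158 in co-culture, with a log2 fold change of 0.32 ± 0.16 SE (edgeR adjusted p = 0.160). AC103702.2 (chr17:48635923-48647023), a noncoding RNA between HOXB9 and HOXB13, had 12, 16 and 10 counts against 5 and 7 (log2 fold change -0.89 ± 0.50 SE, edgeR adjusted p = 0.201). AC009336.2 (chr2:176151085-176173097), a gene that spans HOXD4 and the end of HOXD3, had 22, 15 and 10 counts against 14 and 17 (log2 fold change 0.16, edgeR adjusted p = 0.805). None of the 3 was called.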
